A study of Mus musculus with 2 samples.

Results

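The genes described here encode proteins made for the primary (azurophil) granules of neutrophils and their promyelocyte precursors, and Ms4a3, a membrane protein of the same stage. They are Mpo, Elane, Prtn3, Ctsg and Ms4a3, 5 of the 22020 gene symbols in the table, chosen by name and each listed with 1 transcript. Their RNA was compared between 2 libraries of LSK cells, the bone marrow fraction without lineage markers that carries c-Kit and Sca-1 and holds the stem cells and earliest multipotent progenitors of the blood. One library came from Utx/p53 DKO mice, lacking both p53 and Utx (Kdm6a, an X-linked histone demethylase), and had 19926294 reads. The other came from p53 KO mice and had 17088105 reads, so p53 was deleted in both groups. All mice were 8 weeks old and of the C57BL/6 background. The labels give neither the promoter or Cre behind the deletions, nor the sex, nor how many mice gave cells to a library. There was 1 library per genotype, so no value has a replicate check, no test was made, and every difference describes these 2 libraries.

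Primary granules are the first granules formed during granulocyte development, in the promyelocyte. Mpo encodes myeloperoxidase, which makes hypochlorous acid from hydrogen peroxide and chloride. Elane (neutrophil elastase), Prtn3 (proteinase 3) and Ctsg (cathepsin G) encode serine proteases that are stored active in the granule and digest microbes and matrix. Ms4a3 belongs to the MS4A family of membrane proteins and is used as a marker of granulocyte-monocyte progenitors. The genes are switched on as progenitors commit to the granulocyte and monocyte fate, and their RNA declines again before neutrophils are mature.

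All 5 granule genes were more abundant in the DKO library than in the p53 KO library, by ratios of 4.10 to 16.2. Levels are RPKM, the deposited measure of reads per length of transcript and per size of the library, and differences are on log2(RPKM + 1), DKO minus p53 KO. A gene counted as higher or lower when it differed at least 2-fold on that scale. By this rule 5 of 5 granule genes were higher, against 6.60% of the 11356 measured genes (13.5% were lower). Measured genes averaged 1 RPKM or more over both libraries. A gene near 0 in 1 library can pass this minimum through the other, and its call then follows from the minimum. The 5 genes were chosen with earlier results of these data known, so their count is a description and gives no support. Prss57, a further serine protease of primary granules outside the set, was lower (log2 difference -1.95). Among the 645 genes averaging 100 RPKM or more, a limit that a gene high in 1 library passes more easily, 14.6% were higher and 4.50% lower; this second limit was chosen after the data were seen. In bulk RNA a larger share of cells with these transcripts and more RNA per cell cannot be told apart.

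Mpo was at 6386 RPKM in the DKO library and 876 RPKM in the p53 KO library. Its ratio was 7.29 (95% interval 7.20 to 7.38), a log2 difference of 2.86. The peroxidase transcript was the 4th most abundant of all genes in the DKO library and the 39th in the p53 KO library. Intervals here are exact (Clopper-Pearson) on reads recovered from the RPKM values and cover counting error only, not the spread between mice.

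Elane was the most abundant transcript of the DKO library, at 26714 RPKM, against 1649 RPKM and rank 12 in the p53 KO library. Its ratio of 16.2 (95% interval 16.0 to 16.4) was the largest of the 5 genes, and its log2 difference of 4.02 ranked 19th among all 11356 measured genes. Prtn3, its neighbour on chromosome 10, was at 3080.2 RPKM in the DKO library, against 370.2 RPKM in the p53 KO library. The Prtn3 ratio was 8.32 (95% interval 8.10 to 8.54; log2 difference 3.05). So the adjacent protease genes both lay higher, with ratios whose counting intervals did not overlap.

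Ctsg, the least abundant of the proteases, was at 1160.4 RPKM in the DKO library and 108 RPKM in the p53 KO library. Its ratio was 10.7 (95% interval 10.2 to 11.3) and its log2 difference 3.41. It was the 41st most abundant gene of the DKO library and the 567th of the p53 KO library. Ms4a3, which encodes no granule enzyme, had the lowest levels of the set and differed least: it was at 212 RPKM in the DKO library and 51.8 RPKM in the p53 KO library. Its ratio was 4.10 (95% interval 3.81 to 4.41) and its log2 difference 2.01, and 226 of the measured genes (1.99%) had a difference at least as large.

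**Figure D1:**
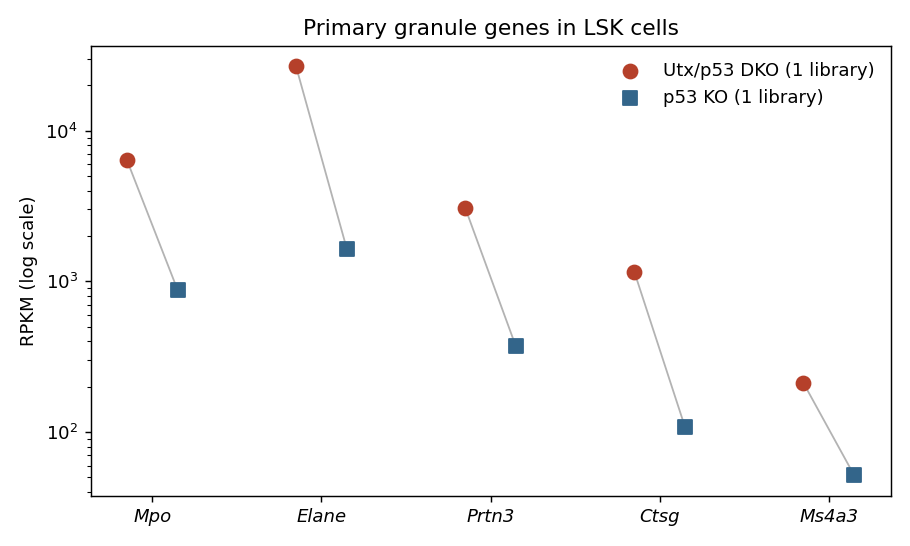
RPKM (log axis) of the 5 granule genes in the Utx/p53 DKO library (circles) and the p53 KO library (squares), 1 library each, joined by lines. Each gene lies higher in the DKO library, and the lines of Elane (26714 against 1649 RPKM) and Ctsg (1160.4 against 108 RPKM) are the steepest.

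The order of the genes by level, Elane, Mpo, Prtn3, Ctsg and Ms4a3, was the same in both libraries, but their proportions differed. Elane was at 4.18 times the level of Mpo in the DKO library and 1.88 times in the p53 KO library. Of the RPKM summed over the 5 genes, Elane made up 71.1% in the DKO library and 54.0% in the p53 KO library, while Mpo made up 17.0% in the DKO library and 28.7% in the p53 KO library. Prtn3 was at 0.482 times the level of Mpo in the DKO library and 0.423 times in the p53 KO library. The 5 ratios, in rising order Ms4a3, Mpo, Prtn3, Ctsg and Elane, had counting intervals that did not overlap, but without replicate libraries it is unknown whether mice of 1 genotype differ by as much.

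Together the 5 genes had a summed RPKM of 37552.5 in the DKO library and 3055 in the p53 KO library. This was 8.02% of the summed RPKM of all genes in the DKO library and 0.846% in the p53 KO library, a ratio of shares of 9.48. Elane alone took 5.71% of the DKO sum and 0.457% of the p53 KO sum. Mpo took 1.36% of the DKO sum and 0.243% of the p53 KO sum, and Prtn3 0.658% of the DKO sum and 0.103% of the p53 KO sum. The smallest shares were those of Ctsg, with 0.248% of the DKO sum and 0.0299% of the p53 KO sum, and of Ms4a3, with 0.0453% of the DKO sum and 0.0143% of the p53 KO sum. Without Elane the other 4 genes still differed, at 2.31% of the DKO sum and 0.390% of the p53 KO sum, a ratio of 5.94. The RPKM summed over all genes was itself larger in the DKO library, at 468247 against 361030 in the p53 KO library. Counted as reads, the 5 genes had 4.81% of all reads in the DKO library and 0.454% in the p53 KO library. These shares use the transcript lengths nearest GENCODE's where several lengths were possible, and they depend on that choice. At the length with the fewest reads, Elane had 376347 rather than 522733 reads in the DKO library and 19922 rather than 27671 in the p53 KO library. No interval is given for that reason.

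**Figure D2:**
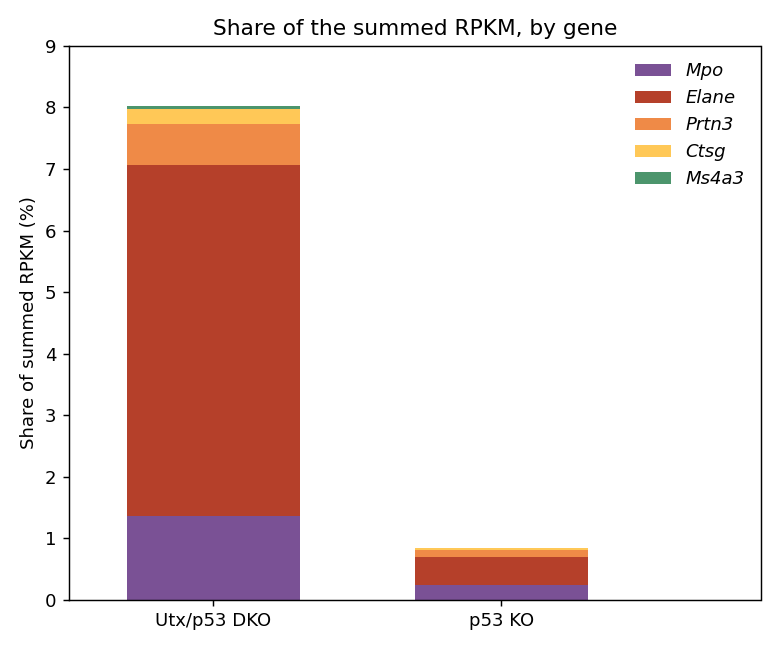
Share of the summed RPKM of all genes (%, axis from 0) taken by each of the 5 granule genes, stacked, in the Utx/p53 DKO and the p53 KO library. The stack reaches 8.02% in the DKO library and 0.846% in the p53 KO library, and Elane is its largest part in both.

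The median log2 difference of the 5 genes was 3.05, against -0.24 over all measured genes. Every difference was larger relative to that all-gene median, from 2.25 for Ms4a3 to 4.25 for Elane. The authors' deposited table, which applies normalization constants, gives log2 fold changes of 4.62 for Elane, 4.03 for Ctsg, 3.66 for Prtn3, 3.47 for Mpo and 2.64 for Ms4a3. In the authors' deposited table the GFOLD values, which shrink a fold change by its counting error, were 4.60, 3.95, 3.61, 3.45 and 2.51 for the same genes in that order.

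**Figure D3:**
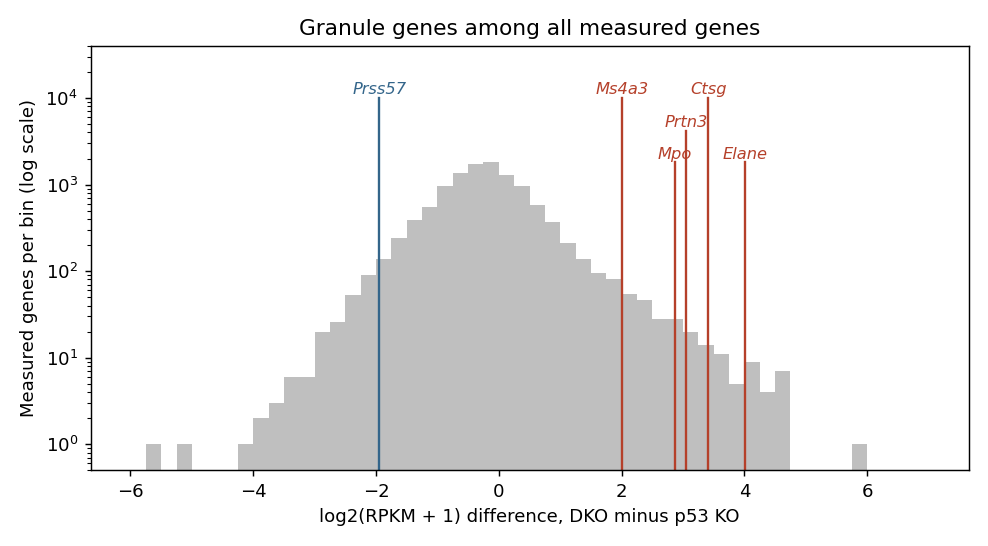
Number of measured genes (log axis) by log2(RPKM + 1) difference, DKO minus p53 KO, in bins, with the 5 granule genes (red) and Prss57 (blue) marked by lines whose height has no meaning. The 5 genes lie in the right tail between 2.01 and 4.02, and Prss57 lies at -1.95.

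**Figure D4:**
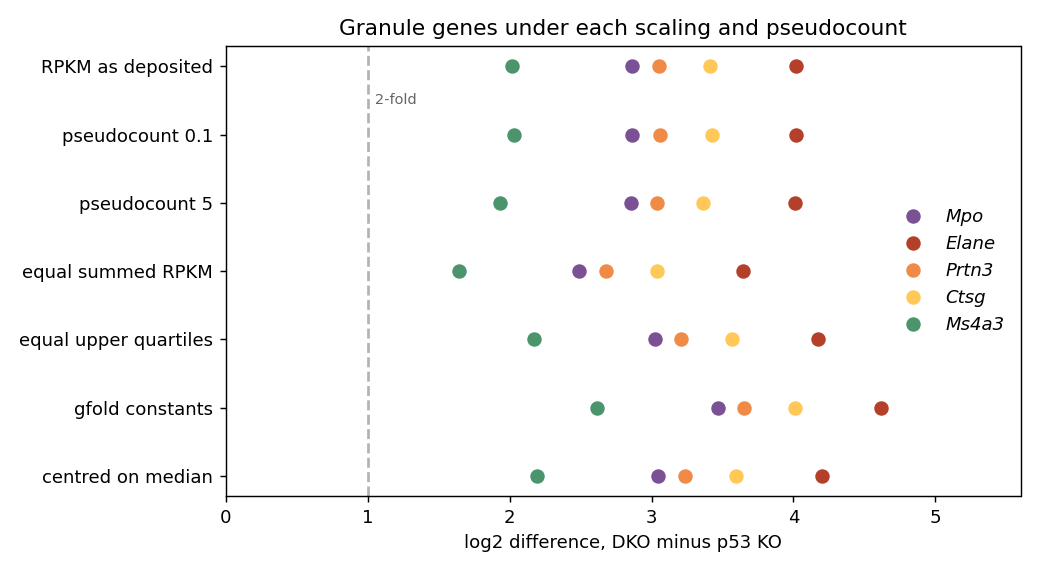
Log2 difference, DKO minus p53 KO, of each granule gene with the RPKM as deposited and under 6 other pseudocounts or scalings. The scalings shift all 5 genes together, from 1.64 (Ms4a3, equal summed RPKM) to 4.62 (Elane, gfold constants), and every point lies right of the dashed 2-fold line.

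The sequences before the start of these genes are given because the genes, all higher in the DKO library, lie on 4 chromosomes, with Elane and Prtn3 side by side. They are the 250 bases before the annotated start in RefSeq on GRCm38.p6, which is not the build of the files (mm9), read 5′ to 3′ on the strand of the gene, and all 5 genes were matched by symbol. The Mpo window is chr11:87793534-87793783 (plus strand) and the Elane window chr10:79886062-79886311 (plus). Prtn3 is at chr10:79879417-79879666 (plus), Ctsg at chr14:56102575-56102824 (minus) and Ms4a3 at chr19:11640852-11641101 (minus). Capitals mark GGAAGT, the longest run found in all 5 windows, and in Elane and Prtn3 also GCTATAAG, the longest run they share in the last 50 bases.
Mpo: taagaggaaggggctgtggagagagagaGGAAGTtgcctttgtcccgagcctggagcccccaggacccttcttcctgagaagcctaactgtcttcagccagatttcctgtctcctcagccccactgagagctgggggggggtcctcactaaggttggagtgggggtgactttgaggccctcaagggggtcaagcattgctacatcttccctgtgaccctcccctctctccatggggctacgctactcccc
Elane: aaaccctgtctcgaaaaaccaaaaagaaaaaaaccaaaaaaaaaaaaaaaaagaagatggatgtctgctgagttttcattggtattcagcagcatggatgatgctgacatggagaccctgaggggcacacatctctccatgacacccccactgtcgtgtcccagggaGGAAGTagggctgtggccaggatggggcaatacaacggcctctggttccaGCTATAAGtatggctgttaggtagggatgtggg
Prtn3: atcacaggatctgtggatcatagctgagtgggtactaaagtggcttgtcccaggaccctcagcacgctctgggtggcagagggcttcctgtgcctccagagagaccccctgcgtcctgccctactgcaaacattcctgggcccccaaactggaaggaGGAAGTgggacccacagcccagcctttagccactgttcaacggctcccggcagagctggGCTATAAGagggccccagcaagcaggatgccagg
Ctsg: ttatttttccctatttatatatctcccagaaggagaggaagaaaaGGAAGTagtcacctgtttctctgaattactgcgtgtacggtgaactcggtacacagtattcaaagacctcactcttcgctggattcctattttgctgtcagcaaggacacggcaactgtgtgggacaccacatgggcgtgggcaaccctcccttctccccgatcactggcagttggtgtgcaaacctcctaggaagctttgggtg
Ms4a3: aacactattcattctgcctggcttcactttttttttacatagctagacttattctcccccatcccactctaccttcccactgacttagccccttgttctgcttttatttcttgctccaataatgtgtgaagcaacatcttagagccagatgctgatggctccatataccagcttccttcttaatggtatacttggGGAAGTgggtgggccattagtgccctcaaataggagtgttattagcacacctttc

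GGAAGT, which holds the ETS core GGAA, begins at position -83 in Elane, -93 in Prtn3, -222 in Mpo, -205 in Ctsg and -55 in Ms4a3, with -1 the base before the start. On either strand it is found in 19.7% of the 32851 windows of the RefSeq promoter table. GCTATAAG begins at -33 in Elane and -34 in Prtn3 and is found in 0.304% of all windows. Both runs were picked after the sequences were seen. Of the motifs listed for factors of these genes and searched on both strands, the PU.1 form AGAGGAAG is in the Mpo and Ctsg windows and in 3.67% of all windows, and it also holds GGAA. The C/EBP form TTNNGNAA is in the Ms4a3 window and in 36.8% of all, the Runx form TGTGGT in the Ctsg window and in 14% of all, and the TATA box form TATAAA in the Ctsg window and in 12.4% of all. The Myb form AACNG is in the windows of Mpo, Elane, Prtn3 and Ctsg, as in 74.2% of all, and the Gfi1 core AATC in those of Mpo and Ctsg, as in 69% of all. These are matches of letters and say nothing about binding.

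Genes next to the granule genes did not all share their differences. Cfd (complement factor D), the next measured gene after Elane, had 75 reads (4.08 RPKM) in the DKO library and 1 read (0.0634 RPKM) in the p53 KO library. Its ratio was 64.3, with a 95% interval of 11.2 to 2574. On the other side of Prtn3, BC005764 was at 44.5 RPKM in the DKO library and 40.1 RPKM in the p53 KO library. Beside Mpo, Bzrap1 was at 64.3 RPKM in the DKO library, against 3.79 RPKM in the p53 KO library, a ratio of 17.0 (95% interval 15.5 to 18.6), while Mks1 on the other side was at 2.14 RPKM in the DKO library and 2.25 RPKM in the p53 KO library. Mpo also overlaps a long non-coding RNA gene of the RefSeq table that has no row in the deposited table, and the sources used here do not state whether counting used strand. Beside Ctsg, the basophil protease gene Mcpt8 was at 17.7 RPKM in the DKO library and 17.2 RPKM in the p53 KO library, while Gzmb (granzyme B) was at 28.6 RPKM in the DKO library and 3.55 RPKM in the p53 KO library. Beside Ms4a3, Ms4a6d was at 2.01 RPKM in both libraries and Oosp1 at 1.61 RPKM in the DKO library and 3.22 RPKM in the p53 KO library.

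Serine proteases related to Elane, Prtn3 and Ctsg went both ways. Of 22 listed genes, 7 were measured, of which 3 lay higher and 2 lay lower by the 2-fold rule. Their median log2 difference was 0.29, and 0.00 when both libraries were scaled to equal summed RPKM. Prss57, a further serine protease of primary granules on the same chromosome as Elane, was lower and is counted in 2 of the lists: it was at 4.47 RPKM (240 reads) in the DKO library and 20.1 RPKM (924 reads) in the p53 KO library, a ratio of 0.223 (95% interval 0.192 to 0.257). Prss34, a protease gene of basophils, had 1 read in the DKO library and 698 reads in the p53 KO library. Beside Cfd, Gzma and Gzmb were higher: Gzma had a ratio of 5.17 (95% interval 3.64 to 7.53) and Gzmb one of 8.06 (6.44 to 10.2). Gzmm, the other measured granzyme gene, was at 3.67 RPKM in the DKO library and 2.82 RPKM in the p53 KO library, and the interval of its ratio reached from 0.934 to 1.82. It did not pass the rule and is named after its values were seen. Gzmd, Gzmf, Gzmg, Cma2, Mcpt1, Mcpt2 and Mcpt9 had no reads in either library. Granzyme and mast cell protease genes have close copies, so their values are uncertain.

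Genes of related haem peroxidases were near 0 beside Mpo. Epx (eosinophil peroxidase) was at 0.0559 RPKM in the DKO library and 0.0652 RPKM in the p53 KO library, so neither library held more than a trace. Lpo (lactoperoxidase) was at 0.480 RPKM in the DKO library and 0.10 RPKM in the p53 KO library. In the family of Ms4a3, 14 of 15 listed genes were found and 7 were measured, 2 higher and 1 lower, with a median of 0.67. With equal summed RPKM 1 was higher (median 0.30), with equal upper quartiles 3, and with the constants of the file header 4 were higher (median 1.26). Ms4a4b was at 82.7 RPKM in the DKO library and 30.0 RPKM in the p53 KO library, while Ms4a7 was at 3.33 RPKM in the DKO library and 1.07 RPKM in the p53 KO library. Ms4a4c was at 34.0 RPKM in the DKO library and 17.9 RPKM in the p53 KO library, within 2-fold on the log2(RPKM + 1) scale. Ms4a1, which encodes the B cell protein CD20, was lower, at 3.46 RPKM in the DKO library and 14.5 RPKM in the p53 KO library. Ms4a5 and Ms4a13 had no reads. The Ms4a4 genes resemble each other and are uncertain.

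Other proteins of the azurophil granule, which include lysosomal enzymes, were partly higher. Of 14 listed genes, 13 were measured, 6 lay higher by the 2-fold rule, 1 (Prss57) lay lower, and the median was 0.74. With equal summed RPKM 5 lay higher, and with the constants of the file header 8. Lyz2 (lysozyme) was at 15319 RPKM in the DKO library and 1302.5 RPKM in the p53 KO library. Its close copy Lyz1 was at 4.72 RPKM in the DKO library and 0.324 RPKM in the p53 KO library, and the values of both are uncertain. Cd68, a lysosomal membrane glycoprotein gene, was at 126 RPKM in the DKO library and 30.8 RPKM in the p53 KO library, a ratio of 4.09 (95% interval 3.72 to 4.50). Bpi, which encodes a bactericidal protein of human azurophil granules, had no reads in either library.

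Genes for the packaging and maturation of granule proteins mostly lay within 2-fold, as most measured genes did. Of 15 measured genes, 3 were higher, 1 was lower and 11 lay between, with a median of 0.12. Over all measured genes 6.60% were higher and 13.5% lower. With equal summed RPKM the median of the list was -0.25, against -0.55 over all measured genes. With the constants of the file header 5 of the list were higher and 0 lower, with a median of 0.71. Over all 11356 measured genes those constants gave 1873 higher and 712 lower, with a median of 0.28. Srgn, which encodes serglycin, the proteoglycan core that binds granule proteases, was at 2194 RPKM in the DKO library and 643 RPKM in the p53 KO library, a ratio of 3.41 (95% interval 3.34 to 3.49). Cd63, a granule membrane protein gene, was at 102 RPKM in the DKO library and 35.0 RPKM in the p53 KO library, and so was higher as well. Calr, which encodes the chaperone calreticulin that binds the Mpo precursor, was at 673 RPKM in the DKO library and 259 RPKM in the p53 KO library. Unc13d, which encodes a priming factor of granule release, was at 4.02 RPKM in the DKO library and 10.4 RPKM in the p53 KO library. Ctsc, which encodes the peptidase that activates the proteases by removing an N-terminal dipeptide, was at 66.2 RPKM in the DKO library and 53.1 RPKM in the p53 KO library, a log2 difference of 0.31. It is named for that role, not for its size.

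The measured inhibitors of granule proteases were all higher in the DKO library, 4 of 13 listed genes, with a median of 1.49; with equal summed RPKM, 2 of the 4 passed the 2-fold rule. Slpi, a secreted inhibitor of elastase and cathepsin G, was at 2216 RPKM in the DKO library and 127 RPKM in the p53 KO library, a ratio of 17.4 (95% interval 16.6 to 18.2). Serpinb1a, a cytosolic inhibitor of the proteases encoded by Elane, Prtn3 and Ctsg, was at 555 RPKM in the DKO library and 216 RPKM in the p53 KO library. Cst7 (cystatin F, which inhibits cathepsin C) was at 344 RPKM in the DKO library and 111 RPKM in the p53 KO library. Serpinb6a, a cytosolic serpin, was at 14.8 RPKM in the DKO library and 6.82 RPKM in the p53 KO library. The other 9 genes, the Serpina1 copies, Serpina3n, A2m, Serpinb1b and Serpinb1c, had means under 1 RPKM.

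Among 9 measured regulators of granule genes, of 10 listed with Cebpb under the minimum, 5 were higher (3 with equal summed RPKM) and 0 lower, with a median of 1.19. Cebpa, the factor needed to form granulocyte-monocyte progenitors, was at 15.1 RPKM in the DKO library and 2.35 RPKM in the p53 KO library, and Cebpe, which acts later in granulocytes, was at 25.4 RPKM in the DKO library and 5.01 RPKM in the p53 KO library. Gfi1, a repressor that restrains the monocyte fate, was at 14.4 RPKM in the DKO library and 3.97 RPKM in the p53 KO library. Irf8, which favours that fate, was at 123 RPKM in the DKO library and 49.6 RPKM in the p53 KO library. Both factors were thus higher with the RPKM as deposited, but with equal summed RPKM Irf8 and Runx1 fell under the 2-fold rule. Myb and Spi1 (PU.1), named because they are known activators of Mpo and Elane, differed little. Myb was at 63.0 RPKM in the DKO library and 62.0 RPKM in the p53 KO library. Spi1, listed in the table as Sfpi1, was at 5.50 RPKM in the DKO library and 5.44 RPKM in the p53 KO library. Of the other listed regulators, Runx1 was higher, at 20.8 RPKM in the DKO library and 8.57 RPKM in the p53 KO library. Cbfb and Klf4 lay within 2-fold, with log2 differences of -0.366 and -0.685.

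Other genes of granulocyte-monocyte progenitors were higher in 7 of 11 cases (5 with equal summed RPKM) and lower in 2, with a median of 1.33. The Fc receptor genes Fcgr3 and Fcgr2b were at 173 and 151 RPKM in the DKO library, against 15.2 and 16.6 RPKM in the p53 KO library, and Igsf6 was at 134 RPKM in the DKO library and 23.6 RPKM in the p53 KO library. Hdc, which encodes the histamine-forming enzyme of basophils and myeloid progenitors, was lower, at 0.253 RPKM in the DKO library and 6.00 RPKM in the p53 KO library. Of 8 monocyte genes 4 were higher and 0 lower (median 1.04). With equal summed RPKM 3 were higher, and with the constants of the file header 6. F13a1, the A subunit of coagulation factor XIII, was at 381 RPKM in the DKO library and 34.7 RPKM in the p53 KO library and Csf1r, the receptor of the macrophage growth factor, at 34.3 RPKM in the DKO library and 7.61 RPKM in the p53 KO library. Genes of later granules went both ways: of 15 measured, 8 were higher and 3 lower, with a median of 1.22. With equal summed RPKM 6 were higher, and with the constants of the file header 10 were higher and 1 lower. Chi3l3 was at 2452 RPKM in the DKO library and 92.7 RPKM in the p53 KO library. Cd177 and Lcn2 were higher as well, at 175 and 704 RPKM in the DKO library, against 9.31 and 59.5 RPKM in the p53 KO library. The lactoferrin gene Ltf was lower, at 5.42 RPKM in the DKO library and 32.9 RPKM in the p53 KO library.

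**Figure D5:**
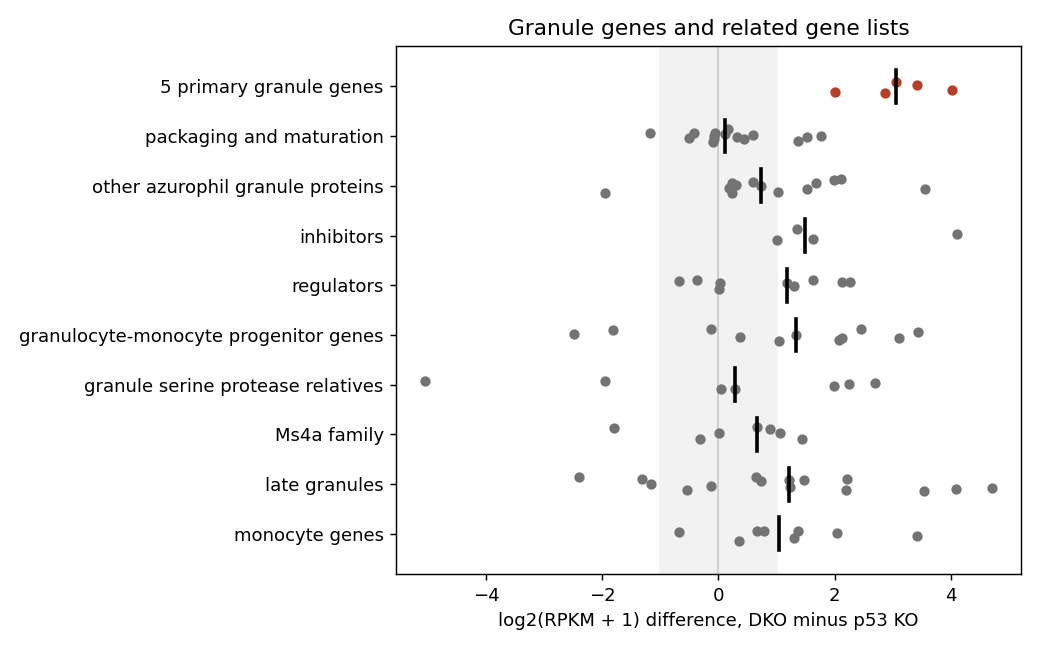
Log2(RPKM + 1) difference, DKO minus p53 KO, of each measured gene in the set of 5 and in 9 related gene lists (points, spread vertically for visibility), with the median of each list (bar) and the range within 2-fold shaded. The 5 granule genes all lie above 2, while the packaging genes gather near 0 and the protease relatives reach from -5.05 to 2.70.

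By level pattern, the 5 genes nearest to the set's median difference, among 640 others averaging 100 RPKM or more, were Gstm1, Mgst1, Sepx1, Prdx5 and Ap3s1. The measure of likeness was the distance of the log2 difference from 3.05, over 2 libraries only, and it lay between 0.009 and 0.135. Gstm1, a glutathione transferase, was at 843 RPKM in the DKO library and 101 RPKM in the p53 KO library, and Mgst1, a membrane-bound glutathione transferase, at 559 RPKM in the DKO library and 62.8 RPKM in the p53 KO library. Prdx5 (a peroxiredoxin) was at 684 RPKM in the DKO library and 87.6 RPKM in the p53 KO library. Sepx1 (a methionine sulfoxide reductase) was at 288 RPKM in the DKO library and 36.1 RPKM in the p53 KO library. Ap3s1 (a subunit of the AP-3 adaptor) was at 281 RPKM in the DKO library and 36.3 RPKM in the p53 KO library. The AP-3 subunit genes of the packaging list, Ap3b1 and Ap3d1, were not higher, with ratios of 0.696 and 0.949.

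Several other measures of the libraries were higher, lower or little different, and 2 libraries cannot show whether any of them goes with the granule genes. Kdm6a was at 1.26 RPKM in the DKO library and 5.32 RPKM in the p53 KO library, a ratio of 0.236 (95% interval 0.193 to 0.287). Trp53 RNA was present in both, at 12.9 RPKM in the DKO library and 19.4 RPKM in the p53 KO library, and which exons were deleted is not in the labels. Of the sort gate, Kit was at 16.0 RPKM in the DKO library and 64.2 RPKM in the p53 KO library while Ly6a (Sca-1) was at 281 RPKM in the DKO library and 255 RPKM in the p53 KO library. Of 10 stem and LSK cell markers, all detected in both libraries, 0 were higher and 7 lower (5 with the constants of the file header). Their summed RPKM was 395 in the DKO library and 923 in the p53 KO library. Ly6a, which differed little, made up 281 RPKM of the DKO sum and 255 RPKM of the p53 KO sum. Of 7 mature neutrophil markers, all of which are also in the list of later granules, 2 were higher (1 with equal summed RPKM, 4 with the constants of the file header) and 1 was lower. None was at 0, and they summed to 1364 RPKM in the DKO library and 620.2 RPKM in the p53 KO library. Ngp made up 1235 RPKM of the DKO sum and 530 RPKM of the p53 KO sum. Of 5 macrophage markers 4 were higher (3 with equal summed RPKM, 5 with the constants of the file header). None was at 0, and they summed to 83.3 RPKM in the DKO library and 19.2 RPKM in the p53 KO library. Of 5 T and NK cell markers 4 were higher (2 with equal summed RPKM), none was at 0, and they summed to 64.2 RPKM in the DKO library and 24.6 RPKM in the p53 KO library. Most measured markers of the remaining lineages were lower, against 13.5% of all measured genes. All 5 measured B cell markers of 6 listed were lower, with a sum of 47.5 RPKM in the DKO library and 249 RPKM in the p53 KO library. Erythroid markers were lower in 4 of 4 measured cases of 6 listed, with a sum of 87.0 RPKM in the DKO library and 709 RPKM in the p53 KO library. Under the minimum, Epor was at 0 RPKM in the DKO library and 0.192 RPKM in the p53 KO library. Klf1, also under it, went the other way, at 1.08 RPKM in the DKO library and 0.610 RPKM in the p53 KO library. Mast cell, basophil and eosinophil markers were lower in 5 of 6 measured cases, with Ear1 at 0 in the DKO library and a sum of 40.6 RPKM there, against 125 RPKM in the p53 KO library. The part of the cell makeup of the sorted fraction in the granule gene differences was not tested.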

How the data were processed

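RNA from sorted LSK cells was sequenced from 1 Utx/p53 DKO and 1 p53 KO library, grouped by the genotype in the labels. The labels' protocols name oligo-dT selection, SMART cDNA synthesis from 50 ng of RNA and amplification without molecular identifiers, which can distort levels. The submitters' processing notes name TopHat2 2.1.0, bcl2fastq 1.8.4 and mm9; how reads with several matches, or strand, were counted is not stated in those sources.

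The authors deposited RPKM values, log2 fold changes, GFOLD values and an E-FDR (a q-value, 1 for every transcript), which gfold 1.1.4 computed, per the file headers, from 17088105 (p53 KO) and 19926294 (DKO) reads. Columns were assigned by the order of libraries in the header. Of 500 low transcripts, 98.2% gave whole reads at some transcript length with these read totals and 0% with the totals exchanged. The authors' log2 fold change is 0.602 above the log2 RPKM ratio through the header's constants (1.30144 and 1) together with the ratio of the read totals.

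The transcript with the highest mean per symbol was used, with a pseudocount of 1, a minimum mean of 1 RPKM and a 2-fold rule. Whole reads were sought at every transcript length that fits both RPKM values and the fold change. Mpo, Elane and Ctsg fitted several lengths: their intervals use the fewest reads, their read counts the length nearest GENCODE's. Read recovery and the size rule were tested on simulated data. Named genes were the 5 genes, the targeted and gate genes, up to 4 genes per list with the largest difference and list genes without reads. Neighbours in RefSeq order (GRCm38.p6), the genes of nearest difference and the 10 most abundant genes were also named. Of the 10 most abundant genes only granule genes and Lyz2 are described. Ctsc, Myb, Spi1, Epx, Lpo and the 9 low inhibitors were named for their role. Runx1, Cbfb, Klf4, Ap3b1, Ap3d1, Klf1 and Epor were named after their values were seen. A result on 1 further listed gene is not reported here. The 5 genes and the 17 lists were chosen with earlier results of these data known. Python 3.11.15, pandas 2.3.3 and SciPy 1.17.1 were used.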

Additional observations from a re-analysis of the deposited data

How the results depend on the processing

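With 1 library per genotype, neither a test nor a library left out was possible. No paired analysis was possible because each genotype has 1 library. All 5 granule genes stayed at least 2-fold higher in the DKO library under each of the pseudocounts and scalings tried. They also passed a 3-fold rule. The 1.5-fold rule and the transcript choices could not change the count, since a 2-fold difference passes 1.5-fold and each gene has 1 transcript. At these levels the pseudocounts could move the genes only little. Each gene's log2 difference was positive in 6 of 6 pseudocounts and scalings, from 3.64 to 4.62 for Elane and from 1.64 to 2.61 for Ms4a3. The median log2 difference of the 5 genes (3.05) was 2.68 with equal summed RPKM, 3.21 with equal upper quartiles, 3.65 with the constants of the file header and 3.23 when centred on the median of genes averaging 5 RPKM or more. It was 3.23 without Mpo, 2.96 without Elane, 3.14 without Prtn3, 2.96 without Ctsg and 3.23 without Ms4a3. The ratio of the summed RPKM share (9.48) was 10.3 with all transcripts in the total. Summing RPKM over the transcripts of a symbol is the same computation for these genes. The ratio was 10.6 for reads at the lengths nearest GENCODE's and 10.4 without the 20 most abundant other genes. It was 11.0 without Mpo, 5.94 without Elane, 9.90 without Prtn3 and 9.59 without Ms4a3. Elane alone therefore moved it by more than 1.5 times.

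The background counts depended more on the settings. Against 750 genes higher and 1528 lower in the DKO library (32.9% of the called genes higher), there were 426 and 476 with a pseudocount of 5, 498 and 2709 with equal summed RPKM (15.5%), 1873 and 712 with the header's constants (72.5%), 1012 and 1086 when centred (48.2%), 949 and 1251 with equal upper quartiles (43.1%), 1481 and 3363 with a 1.5-fold rule, and 369 and 493 with a 3-fold rule; with a minimum mean of 5 RPKM 835 were lower. The scalings moved the all-gene median by -0.31 (equal summed RPKM), 0.13 (upper quartiles), 0.52 (constants) and 0.18 (centred). Counting error limits little here, since Ms4a3, the least abundant gene, had 4277 reads in the DKO library and 895 in the p53 KO library; the spread between mice is unknown.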
